A study of Mus musculus with 15 samples.

Results

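The DNA replication and mitosis genes described here are 40 genes whose products copy the genome and then divide it between daughter cells. They were taken by gene symbol from a list that was drawn up with earlier results of these data known, though its rule uses no measured value, and all 40 were found among the 13657 genes of the deposited table. By textbook role they comprise 10 genes for origin licensing and the replicative helicase, 5 for the sliding clamp, its loader and nucleotide supply, 6 for cyclins and their kinase, 8 for mitotic kinases, the spindle checkpoint and kinetochores, 9 for the spindle and cytokinesis, and 2 for chromosome proteins of cycling cells.

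Cardiac myocytes from neonatal C57BL/6 mice were cultured on PDMS, an elastic silicone, and poly(A) RNA was sequenced from 15 stretch devices in 5 groups of 3. Longitudinal 4 h and transverse 4 h cells were held under static stretch for 4 h with the main axis of stretch along or across the cells. Longitudinal 30 min and transverse 30 min cells were held in the same ways for 30 min, and control cells were not stretched. The labels give control cells no duration, so it is not known whether they match either stretch duration in time. In comparisons with control, stretch and time in the device therefore cannot be told apart. In stretched cells the main axis was extended by 14% and the axis at right angles to it by 3.6%. The labels call the 3 devices of a group, lettered A, B and C, biological replicates. The labels do not say whether the devices were seeded from separate heart preparations, so p-values measure the spread between devices, which may be technical. The series title names the axis of stretch as the question, which the comparisons between axes address.

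Before a cell copies its DNA, Cdc6 and Cdt1 load the Mcm2 to Mcm7 ring on origins, and Cdk1 with the A and B cyclins later drives mitosis. Genes of the replication step are classically regulated through E2F sites, and genes of the mitotic step through the cell cycle genes homology region (CHR), often beside CCAAT boxes. Mouse cardiac myocytes leave the cell cycle soon after birth, whereas fibroblasts and other non-myocytes of the heart go on dividing in culture.

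Promoters are shown for 5 genes to let the letters of replication genes (Mcm5 and Mcm7) be set beside those of mitosis genes (Bub1b, Top2a and Ccnb1). The last is a mitosis gene without a match to the E2F or CHR letters searched. A promoter of 250 bases before to 50 after the start site was found for 33 of the 40 genes in RefSeq's GRCm38.p6 annotation, and no entry was found for Aurkb, Ccne2, Ccna2, Gins2, Tpx2, Mcm4 and Kif20a. Mcm5 lies at chr8:75109259-75109558 on the plus strand, and Mcm7 at chr5:138171834-138172133 on the minus strand. Bub1b lies at chr2:118597961-118598260 on the plus strand, and Top2a at chr11:99024140-99024439 on the minus strand. Ccnb1 lies at chr13:100786437-100786736 on the minus strand. RefSeq also gives Mcm7 a second start, whose promoter at chr5:138171217-138171516 is not printed and held 0 E2F, 0 CHR and 1 CCAAT match. Each is printed 5′ to 3′ on the strand of the gene, and capitals mark matches to the motifs searched.
Mcm5: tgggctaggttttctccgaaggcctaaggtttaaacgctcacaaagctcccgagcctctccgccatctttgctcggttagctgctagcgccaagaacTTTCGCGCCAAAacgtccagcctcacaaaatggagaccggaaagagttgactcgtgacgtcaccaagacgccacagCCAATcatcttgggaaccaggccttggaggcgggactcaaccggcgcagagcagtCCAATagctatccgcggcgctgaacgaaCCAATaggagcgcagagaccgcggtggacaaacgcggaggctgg
Mcm7: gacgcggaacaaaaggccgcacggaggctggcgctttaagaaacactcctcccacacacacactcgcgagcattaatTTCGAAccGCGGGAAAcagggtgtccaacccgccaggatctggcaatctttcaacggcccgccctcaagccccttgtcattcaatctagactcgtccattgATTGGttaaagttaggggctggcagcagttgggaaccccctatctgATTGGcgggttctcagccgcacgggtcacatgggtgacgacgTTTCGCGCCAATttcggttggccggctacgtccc
Bub1b: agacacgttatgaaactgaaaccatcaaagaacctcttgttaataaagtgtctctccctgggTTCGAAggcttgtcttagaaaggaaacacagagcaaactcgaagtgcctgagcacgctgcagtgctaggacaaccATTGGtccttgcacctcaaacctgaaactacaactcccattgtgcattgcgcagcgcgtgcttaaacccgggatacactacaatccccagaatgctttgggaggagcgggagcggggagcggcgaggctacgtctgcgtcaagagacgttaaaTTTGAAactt
Top2a: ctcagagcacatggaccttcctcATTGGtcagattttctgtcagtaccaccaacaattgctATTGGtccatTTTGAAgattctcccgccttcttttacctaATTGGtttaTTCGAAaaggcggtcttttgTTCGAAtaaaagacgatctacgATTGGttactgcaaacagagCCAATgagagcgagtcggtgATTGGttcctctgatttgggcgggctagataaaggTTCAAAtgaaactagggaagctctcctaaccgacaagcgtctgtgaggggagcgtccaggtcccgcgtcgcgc
Ccnb1: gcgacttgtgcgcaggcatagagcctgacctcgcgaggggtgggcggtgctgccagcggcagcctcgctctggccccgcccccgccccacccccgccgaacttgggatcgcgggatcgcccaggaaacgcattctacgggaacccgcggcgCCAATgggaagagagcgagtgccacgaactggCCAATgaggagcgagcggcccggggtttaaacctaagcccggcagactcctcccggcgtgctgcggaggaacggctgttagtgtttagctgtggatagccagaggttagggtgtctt
Motifs were searched on both strands as exact letters: TTTCCCGC, TTTCGCGC, TTTGCCGC or TTTGGCGC for E2F, TTTGAA or TTCGAA for the CHR, and CCAAT for the CCAAT box. An E2F match stood in 7 of 14 replication genes with a promoter (50%) and 1 of 19 mitosis genes (5.26%, Cdk1), beside 4.75% of 8576 tested genes with a promoter. For the CHR it was 3 of 14 replication genes (21.4%) and 15 of 19 mitosis genes (78.9%), beside 15.8% of tested genes. CCAAT stood in 71.4% of replication genes, 84.2% of mitosis genes and 43.2% of tested genes. In Mcm5 the E2F matches on opposite strands overlap within TTTCGCGCCAAA, which begins at base -153 from the start site. In Mcm7 an E2F match overlaps a CCAAT box within TTTCGCGCCAAT, which begins at base 17, and the same promoter also holds a CHR match, TTCGAA at base -173. Bub1b and Top2a had 2 and 4 CHR matches and 0 E2F matches, whereas Ccnb1 had 0 of either and 2 CCAAT boxes. Other variants of these motifs were not searched, so 0 matches does not show that an element is absent. A match is a description of the letters, not a bound site.

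The cultures held cells of several types. Summed over 8 cardiac myocyte markers, FPKM, a fragment count divided by transcript length and library size, was 14792 to 20577 per library, and Myl2, the ventricular myosin light chain, was at 7611 to 11758 FPKM. The 12 fibroblast markers summed to 3101 to 4005 FPKM and the 13 macrophage and leukocyte markers to 404 to 599 FPKM, and none of the markers was listed at 0 in any library. In such bulk RNA, fewer cells of a type and less RNA per cell cannot be told apart. FPKM carries no read counts, so absolute depth is unknown. Relative depth was estimated from the commonest ratio of low values to those of control A. It ran from 0.671 in transverse 30 min B to 1 in transverse 30 min A. That ratio was shared by 24 of 909 and 34 of 917 genes compared in these libraries, so the estimate is rough.

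The replication and mitosis genes were expressed at low to middling levels. Per transcript length, Pcna was the highest in control cells at 53.5 ± 6.11 FPKM (SD, n = 3), above 90.6% of genes, and Cdc6 the lowest at 0.872 ± 0.383 FPKM, above 12.2% of genes. The highest library exceeded the lowest by 1.34-fold for Pcna, 2.75-fold for Mcm5, 2.98-fold for Rrm2 and 4.13-fold for Cdc6. Of the 40 genes, 7 overlap another gene of the table (Mcm7, Gins2, Ccne2, Ccna2, Cdc20, Kif20a and Nusap1), which makes their levels less certain. At least 1 FPKM in 3 libraries was required for testing, which 39 of the 40 genes met; Cdc6 did not. Tests used limma on log2(FPKM + 1), a scale that understates the change of low genes, with p-values adjusted over all 12114 genes tested, and calls were made below an adjusted p of 0.05.

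**Figure D1:**
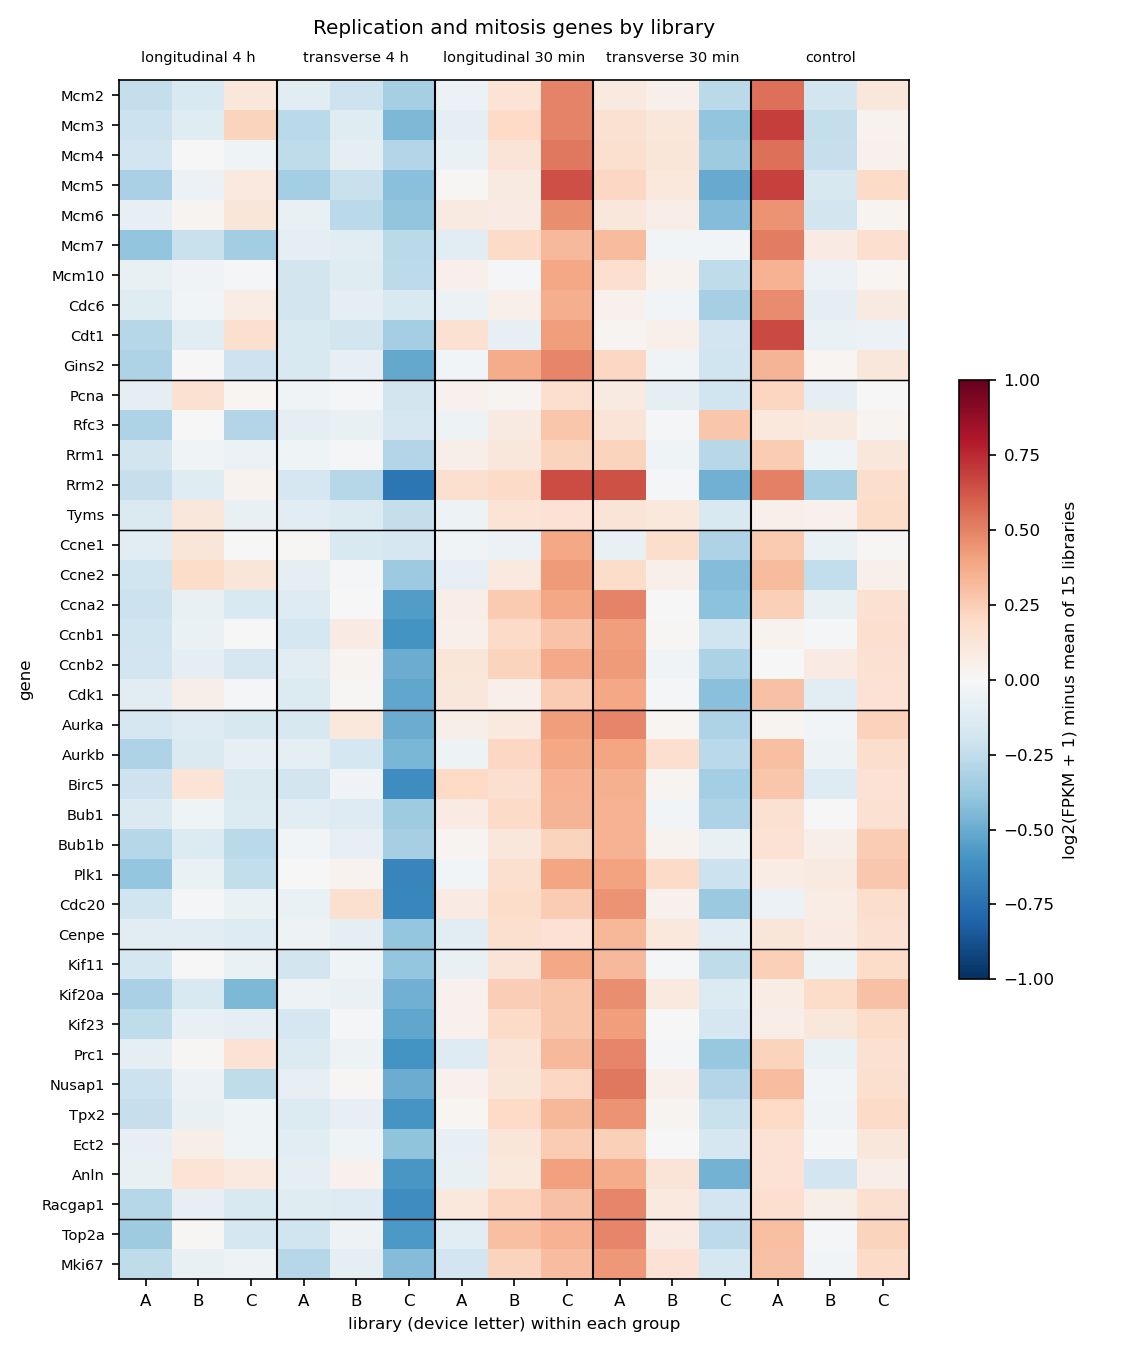
Level of each of the 40 genes (rows, grouped by role) in each of the 15 libraries (columns, by group and device letter), as log2(FPKM + 1) minus the mean of the gene over all libraries. Transverse 4 h C is blue in nearly every row, transverse 30 min A is red mainly in mitosis genes, and control A is red mainly in replication genes.

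After 4 h of longitudinal stretch, 3 of the 39 tested genes fell relative to control and 0 rose. They were Mcm7 of the helicase, the spindle checkpoint gene Bub1b and the cytokinesis kinesin gene Kif20a. Of all genes 20.7% were called in this comparison and 10.4% were called lower, against 7.69% of the replication and mitosis genes called lower, so the share was near the background. The log2 fold change was negative for 38 of 39 genes, with a median of -0.23 against -0.01 over all genes tested, and 17 of 39 had all 3 stretched libraries below all 3 controls, as did 21.5% of all genes. An unadjusted p under 0.05 was reached by 4 of the 39, all lower, while 19.4% of all genes were lower at that level. After 4 h of transverse stretch limma called 0 of the 39, beside 0.0578% of all genes. All 39 log2 fold changes were negative there, with a median of -0.34 against 0.00 over all genes, and 17 had an unadjusted p under 0.05, while 5.86% of all genes were lower at that level. In that comparison 19 of 39 had non-overlapping, lower libraries, as did 9.65% of all genes. Both comparisons use the same 3 control libraries, and the genes vary together within groups, so these counts are not independent. Without transverse 4 h C the transverse median was -0.21.

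**Figure D2:**
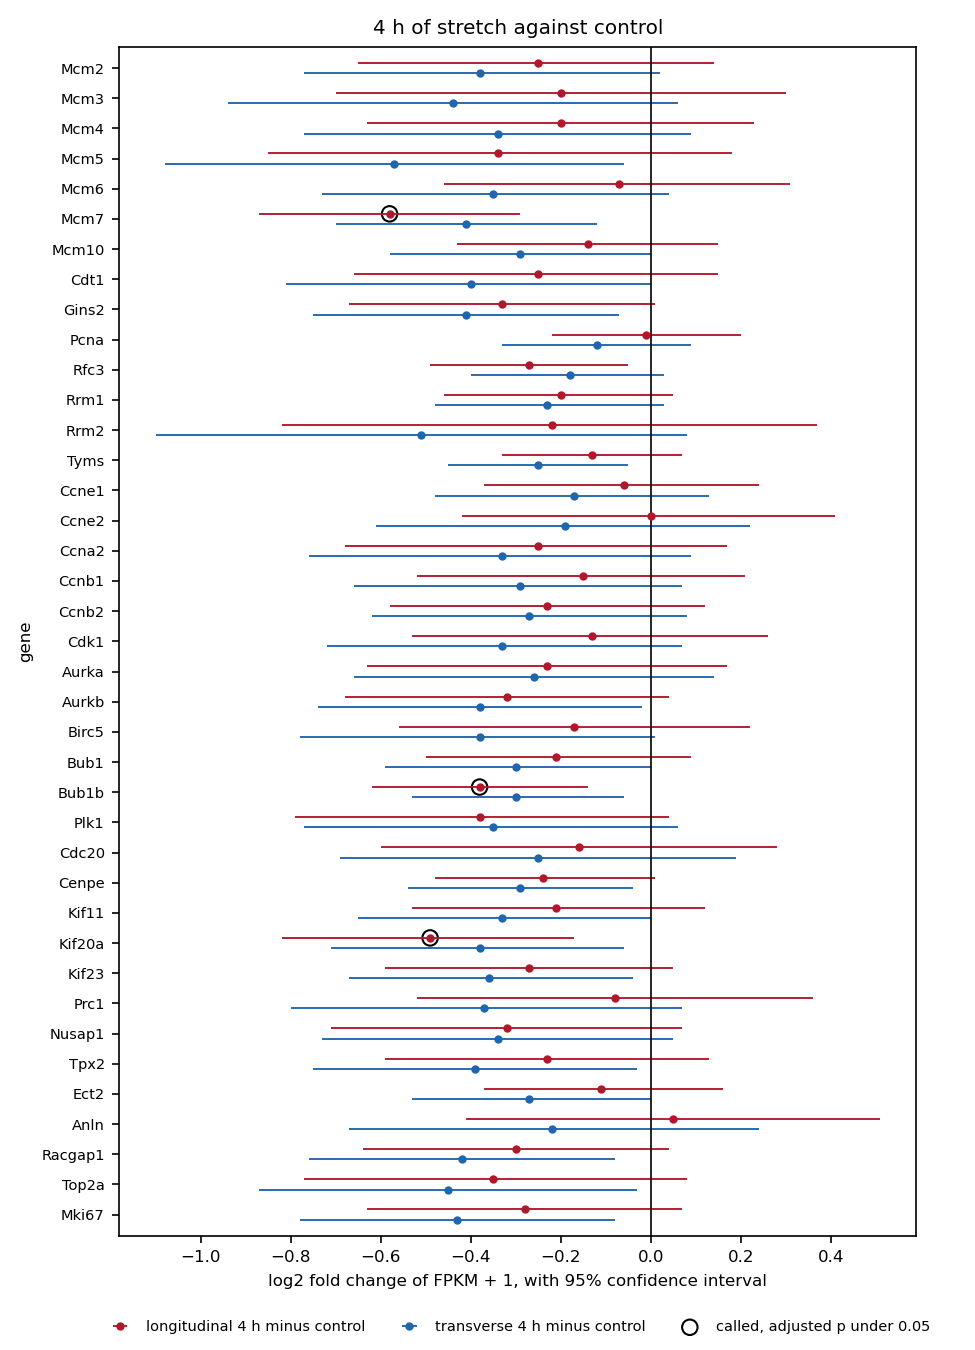
Log2 fold change of FPKM + 1 (horizontal axis) with its 95% confidence interval for each of the 39 tested genes (rows), longitudinal 4 h minus control in red above transverse 4 h minus control in blue. Circles mark Mcm7, Bub1b and Kif20a, called in the longitudinal comparison, and every transverse estimate lies left of 0.

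Mcm7, a subunit of the Mcm2 to Mcm7 helicase (mm9 chromosome 5, 138605817 to 138613090), had the lowest p of the 39 genes in both comparisons with control at 4 h. It had 8.01, 9.11 and 8.29 FPKM in longitudinal 4 h devices A, B and C and 10.1, 10 and 8.82 FPKM in transverse 4 h devices, against 15.9, 11.5 and 12.3 FPKM in control devices. After 30 min it had 10, 12.5 and 13.8 FPKM in longitudinal and 13.7, 10.6 and 10.6 FPKM in transverse devices. Every 4 h library of either axis lay below every control library, and control A was the highest of the 15. Mcm7 fell by 0.58 on the log2 scale in longitudinal 4 h cells (SE 0.13, 95% interval -0.87 to -0.29, limma adjusted p = 0.0135), and the call held in each of 15 fits that left out 1 library (adjusted p = 0.0105 to 0.0467). In the authors' deposited table Mcm7 had q = 0.0204 there and was the only one of the 40 genes with q under 0.05, beside 5.82% of all genes. In transverse 4 h cells its log2 fold change was -0.41 ± 0.13 (limma adjusted p = 0.34). The Mir25 entry overlaps that of Mcm7, and reads that fall within the shared stretch alone cannot be assigned to 1 of them.

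The other licensing and helicase genes were not called. Mcm5, another ring subunit (mm9 chromosome 8, 77633427 to 77652338), had 3.35, 4.22 and 4.83 FPKM in longitudinal 4 h devices and 3.29, 3.67 and 3.07 FPKM in transverse 4 h devices, against 7.76, 3.88 and 5.22 FPKM in control devices. After 30 min it had 4.49, 4.78 and 7.5 FPKM in longitudinal and 5.27, 4.84 and 2.83 FPKM in transverse devices. The transverse 4 h libraries lay below all controls and the longitudinal 4 h libraries overlapped them, and the controls alone spanned a range wider than the difference between group means. The log2 fold change of Mcm5 was -0.34 ± 0.24 in longitudinal 4 h cells (limma adjusted p = 0.315) and -0.57 ± 0.24 in transverse 4 h cells (limma adjusted p = 0.432). In the authors' deposited table Mcm5 had the lowest q of the 40 genes in the transverse 4 h comparison, 0.119.

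Gins2, of the GINS complex that joins the helicase, had 4.69, 6.04 and 5.11 FPKM in longitudinal 4 h devices and 5.34, 5.66 and 3.94 FPKM in transverse 4 h devices, against 7.93, 6.16 and 6.64 FPKM in control devices. At 30 min Gins2 had 5.92, 8.11 and 8.91 FPKM in longitudinal and 7.15, 5.87 and 5.15 FPKM in transverse devices. Both 4 h groups lay wholly below control, with log2 fold changes of -0.33 ± 0.16 for longitudinal and -0.41 ± 0.16 for transverse stretch (limma adjusted p = 0.143 and 0.408). Gins2 overlaps Gse1 in the table, so its level is uncertain. Over the 9 licensing and helicase genes tested the median log2 fold change was -0.25 in longitudinal 4 h and -0.40 in transverse 4 h cells. Cdc6, the licensing gene too low to be tested with the others, had 0.522, 0.623 and 0.743 FPKM in longitudinal 4 h devices and 0.459, 0.548 and 0.492 FPKM in transverse 4 h devices, against 1.30, 0.556 and 0.762 FPKM in control devices. Without the filter its log2 fold change was -0.18 ± 0.14 and -0.30 ± 0.14 (limma adjusted p = 0.383 and 0.481).

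Among the clamp and nucleotide supply genes limma called 0 of 5 in either 4 h group, and 1 had an unadjusted p under 0.05 in each (Rfc3 after longitudinal and Tyms after transverse stretch). Rfc3, of the complex that loads the Pcna clamp, had 5.86, 7.52 and 5.94 FPKM in longitudinal 4 h devices and 6.98, 7.06 and 6.56 FPKM in transverse 4 h devices, against 8.13, 8.01 and 7.64 FPKM in control devices. At 30 min Rfc3 had 7.2, 8.01 and 9.26 FPKM in longitudinal and 8.26, 7.43 and 9.29 FPKM in transverse devices. Both 4 h groups lay below the narrow range of the controls, with log2 fold changes of -0.27 ± 0.10 and -0.18 ± 0.10 (limma adjusted p = 0.0711 and 0.55). Tyms, the thymidylate synthase gene, had 2.77, 3.5 and 2.95 FPKM in longitudinal 4 h devices and 2.87, 2.8 and 2.53 FPKM in transverse 4 h devices, against 3.32, 3.3 and 3.73 FPKM in control devices. Of the 4 h groups of Tyms, the transverse libraries alone lay wholly below control (-0.25 ± 0.09, limma adjusted p = 0.392). Rrm1, the large subunit of ribonucleotide reductase, had 13.7, 15.3 and 15 FPKM in longitudinal 4 h devices and 15.2, 15.5 and 12.6 FPKM in transverse 4 h devices, against 18.9, 15.2 and 17.1 FPKM in control devices. The groups of Rrm1 overlapped in both comparisons. Pcna, the clamp itself, had log2 fold changes of -0.01 ± 0.10 and -0.12 ± 0.10, within intervals of -0.22 to 0.20 and -0.33 to 0.09.

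Of the cyclin genes and Cdk1, limma called 0 of 6 in either 4 h group, and 0 had an unadjusted p under 0.05. Cdk1, the kinase that drives entry to mitosis, had 6.09, 6.95 and 6.61 FPKM in longitudinal 4 h devices and 5.96, 6.71 and 4.35 FPKM in transverse 4 h devices, against 8.39, 6.10 and 7.48 FPKM in control devices. Its partner gene Ccnb1 had 5.48, 6.14 and 6.44 FPKM in longitudinal 4 h devices and 5.62, 6.91 and 3.93 FPKM in transverse 4 h devices, against 6.65, 6.39 and 7.39 FPKM in control devices. For these genes the groups overlapped, and transverse 4 h C was the lowest library of all 15. Ccnb2, the other B cyclin, had 5.78, 6.22 and 5.86 FPKM in longitudinal 4 h devices and 6.14, 6.88 and 4.49 FPKM in transverse 4 h devices, against 6.73, 7.17 and 7.60 FPKM in control devices. Ccna2, the A cyclin of S phase and early mitosis, had 6.13, 6.87 and 6.47 FPKM in longitudinal 4 h devices and 6.57, 7.32 and 4.64 FPKM in transverse 4 h devices, against 8.78, 6.90 and 8.21 FPKM in control devices. Ccnb2 and Ccna2 were separate from control after longitudinal stretch alone, at -0.23 ± 0.16 and -0.25 ± 0.20 (limma adjusted p = 0.32 and 0.362). The E cyclin genes Ccne1 and Ccne2, which act at the entry to S phase, had log2 fold changes of -0.06 ± 0.14 and 0.00 ± 0.19 in longitudinal 4 h cells, and -0.17 ± 0.14 and -0.19 ± 0.19 in transverse 4 h cells.

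Bub1b, which encodes the checkpoint kinase BubR1 (mm9 chromosome 2, 118423947 to 118467328), had 3.26, 3.71 and 3.29 FPKM in longitudinal 4 h devices and 4.09, 3.89 and 3.12 FPKM in transverse 4 h devices, against 4.73, 4.39 and 5.16 FPKM in control devices. At 30 min Bub1b had 4.29, 4.61 and 5.03 FPKM in longitudinal and 5.58, 4.31 and 3.91 FPKM in transverse devices. Every 4 h library lay below every control. Bub1b fell by 0.38 on the log2 scale in longitudinal 4 h cells (SE 0.11, limma adjusted p = 0.0308) and had a log2 fold change of -0.30 ± 0.11 in transverse 4 h cells (limma adjusted p = 0.396). Its call was lost without any of the 3 controls or longitudinal 4 h A or C (adjusted p = 0.0185 to 0.103 over the 15 leave-outs). Cenpe, the kinetochore motor gene, had 1.14, 1.13 and 1.11 FPKM in longitudinal 4 h devices and 1.23, 1.17 and 0.767 FPKM in transverse 4 h devices, against 1.51, 1.45 and 1.56 FPKM in control devices. The libraries of Cenpe did not overlap in either comparison, with log2 fold changes of -0.24 ± 0.12 and -0.29 ± 0.12 (limma adjusted p = 0.153 and 0.414). Over the 8 genes of this role the median was -0.23 in longitudinal 4 h and -0.30 in transverse 4 h cells.

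Kif20a encodes a kinesin of the central spindle, and its deposited entry spans mm9 chromosome 18, 34758269 to 34811390. It had 4.03, 4.65 and 3.61 FPKM in longitudinal 4 h devices and 5.07, 5 and 3.51 FPKM in transverse 4 h devices, against 5.61, 6.16 and 6.70 FPKM in control devices. After 30 min it had 5.47, 6.47 and 6.61 FPKM in longitudinal and 7.67, 5.75 and 4.73 FPKM in transverse devices. Both 4 h groups lay below control. Kif20a fell by 0.49 on the log2 scale in longitudinal 4 h cells (SE 0.15, limma adjusted p = 0.0378) and had a log2 fold change of -0.38 ± 0.15 in transverse 4 h cells (limma adjusted p = 0.411). Leaving out longitudinal 4 h A or C, or control B or C, ended the call (adjusted p = 0.0236 to 0.13 over the leave-outs). The deposited entry of Kif20a overlaps those of Brd8 and Cdc23, and may be wider than the gene itself. Reads of the 3 genes cannot be told apart by strand. Racgap1, of the centralspindlin complex of cytokinesis, had 5.24, 6.21 and 5.87 FPKM in longitudinal 4 h devices and 6.00, 5.96 and 3.95 FPKM in transverse 4 h devices, against 7.54, 6.93 and 7.5 FPKM in control devices. Its groups did not overlap in either comparison, at -0.30 ± 0.16 and -0.42 ± 0.16 (limma adjusted p = 0.183 and 0.401). Anln, the actin-binding gene of the cleavage furrow, was the single exception to the negative signs, at 0.05 ± 0.21 in longitudinal 4 h cells.

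Top2a, the topoisomerase that untangles sister chromatids (mm9 chromosome 11, 98854261 to 98885503), had 5.41, 7.25 and 6.24 FPKM in longitudinal 4 h devices and 6.13, 6.9 and 4.5 FPKM in transverse 4 h devices, against 9.1, 7.11 and 8.59 FPKM in control devices. At 30 min Top2a had 6.58, 9.08 and 9.45 FPKM in longitudinal and 10.5, 7.66 and 5.84 FPKM in transverse devices. The transverse 4 h libraries were separate from control (-0.45 ± 0.19, limma adjusted p = 0.453) and the longitudinal ones overlapped (-0.35 ± 0.19, limma adjusted p = 0.21). Mki67, which encodes the proliferation antigen Ki-67, had 2.84, 3.33 and 3.41 FPKM in longitudinal 4 h devices and 2.75, 3.27 and 2.38 FPKM in transverse 4 h devices, against 4.61, 3.48 and 4.22 FPKM in control devices. Both groups of Mki67 lay below control, at -0.28 ± 0.16 and -0.43 ± 0.16 (limma adjusted p = 0.221 and 0.401).

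**Figure D3:**
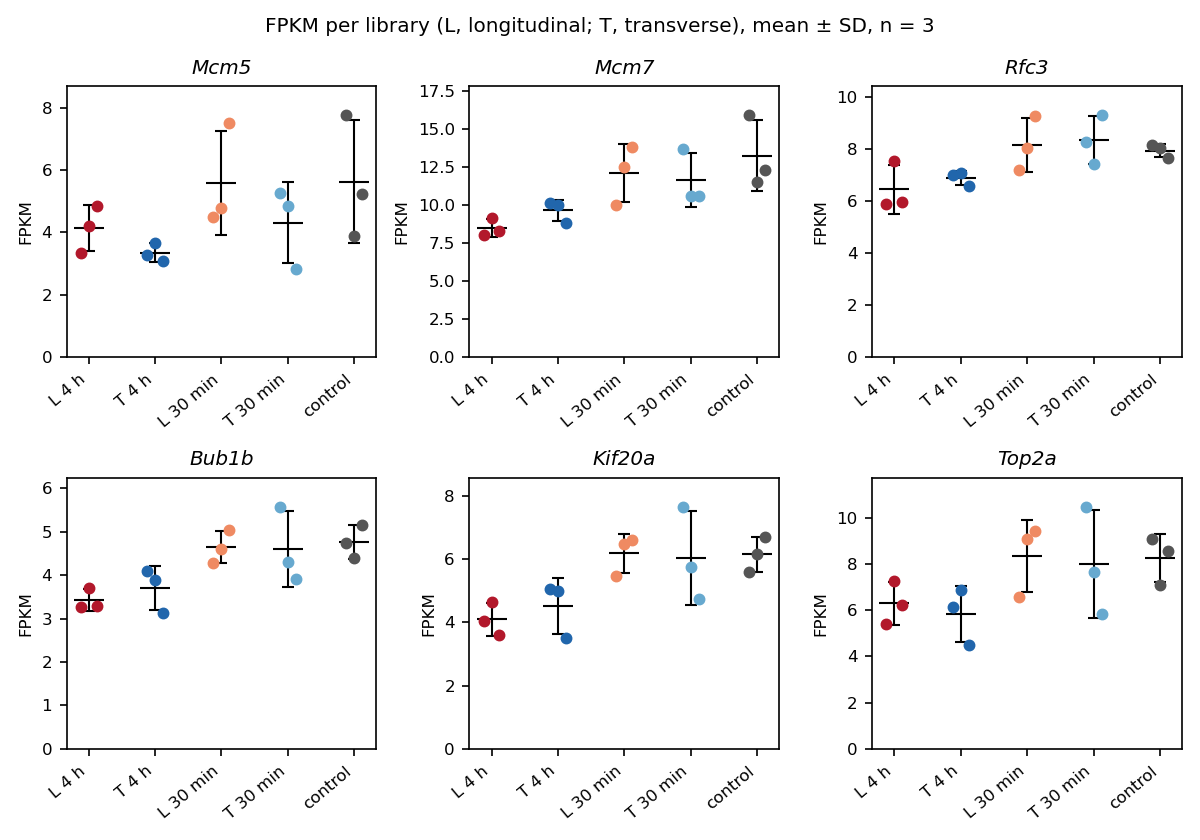
FPKM per library (points, devices A, B and C from left to right) with group mean and SD (n = 3) for 6 genes, with longitudinal (L) and transverse (T) groups at 4 h and 30 min and control on the horizontal axis. All 4 h points of Mcm7, Rfc3, Bub1b and Kif20a lie below all control points, whereas the longitudinal 4 h points of Mcm5 and Top2a reach into the control range.

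After 30 min the median log2 fold changes from control were smaller in size than after 4 h of the same axis. Limma called 0 of 39 in the longitudinal comparison, beside 0.446% of all genes, and 0 of 39 in the transverse comparison, beside 0.314% of all genes. An unadjusted p under 0.05 was reached by 0 genes in either, and in the authors' deposited table the lowest q of the 40 genes was 1 in each. The median log2 fold change was 0.04 in longitudinal 30 min cells, with 32 of 39 positive, and -0.07 in transverse 30 min cells, with 35 of 39 negative. Neither sign held when single libraries were left out. The transverse median was 0.08 without transverse 30 min C, -0.23 without transverse 30 min A, -0.15 without control B and -0.01 without control A. The longitudinal median was -0.05 without longitudinal 30 min C, -0.04 without control B, 0.11 without control A, 0.13 without longitudinal 30 min A and 0.07 without longitudinal 30 min B. For 0 genes were the stretched libraries all on the same side of the controls, beside 7.12% of all genes below and 10.6% above control in the longitudinal comparison, and 3.52% and 4.08% in the transverse comparison. The median for licensing and helicase genes was 0.04 after longitudinal and -0.18 after transverse stretch. Of the 9 tested, 7 were positive after longitudinal stretch, and 9 were negative after transverse stretch, the lowest at -0.31.

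The durations were also compared directly, without the control libraries. In longitudinal 4 h against longitudinal 30 min cells limma called 0 of 39, beside 4.98% of all genes, and 8 were lower at an unadjusted p under 0.05, as were 14.2% of all genes. All 39 log2 fold changes were negative, with a median of -0.28 against -0.02 over all genes, and 20 of 39 had every 4 h library below every 30 min library, beside 17.7% of all genes. Without longitudinal 30 min C, 35 of 39 were negative. Mcm7 had a log2 fold change of -0.46 ± 0.13 (limma adjusted p = 0.0657), Kif20a of -0.50 ± 0.15 (0.0735) and Bub1b of -0.35 ± 0.11 (0.0811). In transverse 4 h against transverse 30 min cells limma called 0 of 39, beside 0.338% of all genes, and 6 were lower at an unadjusted p under 0.05, as were 5.90% of all genes. With all libraries 39 of 39 were negative there too, with a median of -0.24 against 0.00 over all genes. Without transverse 4 h C the median was -0.13 with 35 of 39 negative, without transverse 30 min A it was -0.12 with 36 of 39 negative, and without transverse 30 min C it was -0.40. Mcm7 and Rfc3 were the 2 genes whose transverse 4 h libraries all lay below the 30 min libraries, beside 7.73% of all genes.

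The axis of stretch was tested at each duration. In longitudinal 4 h against transverse 4 h cells limma called 0 of 39, beside 0.0165% of all genes, and 0 had an unadjusted p under 0.05. The estimates were positive for 34 of 39 genes with a median of 0.12, which was 0.01 without transverse 4 h C, 0.06 without longitudinal 4 h B and 0.20 without transverse 4 h B. For Mcm7 the difference was -0.17 ± 0.13 (95% interval -0.46 to 0.12), for Mcm5 0.23 ± 0.24 (-0.28 to 0.74), for Top2a 0.10 ± 0.19 (-0.32 to 0.52) and for Bub1b -0.08 ± 0.11 (-0.32 to 0.15). Mcm10, which helps to activate the helicase, was the 1 gene with every longitudinal library above every transverse library, beside 16.5% of all genes. In longitudinal 30 min against transverse 30 min cells limma called 0 of 39, beside 0.0248% of all genes, 0 had an unadjusted p under 0.05, and the median was 0.13. That median was -0.01 without transverse 30 min C, 0.28 without transverse 30 min A, 0.04 without longitudinal 30 min C and 0.20 without longitudinal 30 min A. The interaction of axis and duration called 0 of 39, beside 0.0248% of all genes, 0 had an unadjusted p under 0.05, and the median was -0.02, with either sign over the leave-outs (-0.16 without transverse 30 min A to 0.14 without transverse 30 min C). These intervals are wide, and a p above the threshold does not show that the axes acted alike.

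The genes varied between devices of a group, and they varied together. Their median SD within groups was 0.222 on the log2(FPKM + 1) scale, against 0.112 over all genes tested and 0.111 over 10470 genes in the same range of levels. Deviations from the group means correlated with a median r of 0.81 between pairs of replication genes, 0.91 between pairs of mitosis genes and 0.70 between a replication and a mitosis gene, across 15 libraries that all the pairs share. Here replication genes are the 17 genes of licensing, helicase, clamp, nucleotide supply and E cyclins, and mitosis genes are the other 23. Of the 40 genes, 31 were lowest in transverse 4 h C, including all 23 mitosis genes, and 7 replication genes were lowest in transverse 30 min C. The highest library was transverse 30 min A for 20 mitosis genes, control A for 9 replication genes, and longitudinal 30 min C for 6 replication and 3 mitosis genes.

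Averaged over the 17 replication genes, the deviation from the mean of all libraries was -0.21, -0.02 and 0.00 in longitudinal 4 h devices and -0.14, -0.13 and -0.33 in transverse 4 h devices, against 0.41, -0.10 and 0.08 in control devices. Averaged over the 23 mitosis genes it was -0.21, -0.04 and -0.12 in longitudinal 4 h devices and -0.12, -0.03 and -0.51 in transverse 4 h devices, against 0.16, 0.00 and 0.18 in control devices. After 30 min the replication mean was 0.00, 0.10 and 0.40 in longitudinal and 0.16, 0.04 and -0.27 in transverse devices, and the mitosis mean was 0.01, 0.17 and 0.31 and 0.41, 0.05 and -0.26. Control A was high mainly in replication genes and transverse 30 min A mainly in mitosis genes, while the median of all genes in a library deviated by -0.02 to 0.03. With both control A and transverse 4 h C left out, a choice made after seeing the data, the median log2 fold change was -0.17 in longitudinal 4 h and -0.14 in transverse 4 h cells, with 32 and 36 of 39 negative.

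**Figure D4:**
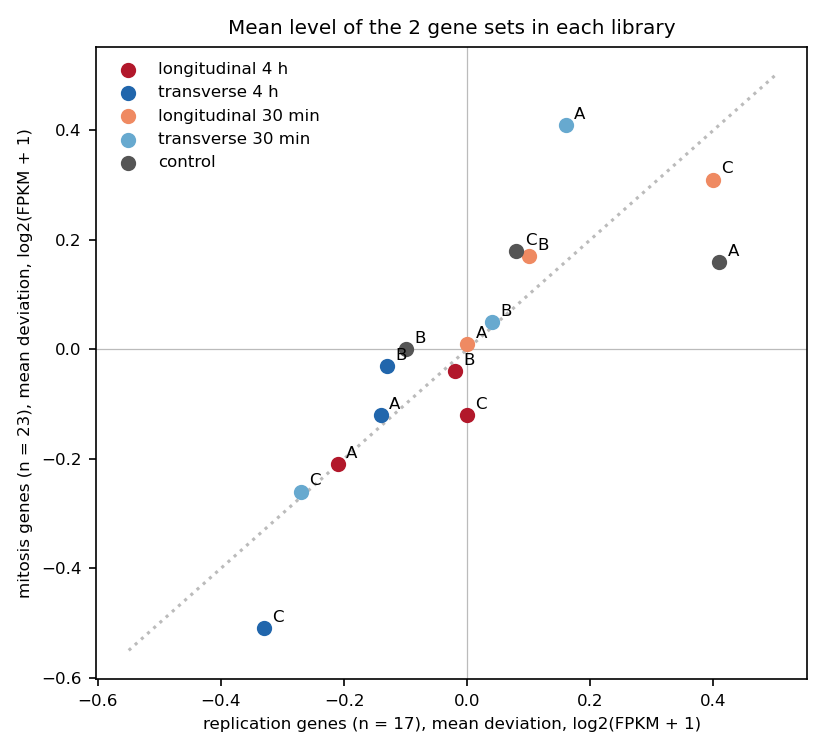
Mean deviation of the 17 replication genes (horizontal axis) and of the 23 mitosis genes (vertical axis) on the log2(FPKM + 1) scale for each library, with device letters and group colours, and a dotted line of equality. The 4 h libraries lie at or below 0 on both axes, control A lies below the line and transverse 30 min A above it.

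Genes outside the list that followed it most closely over the 15 libraries were Nuf2 (Pearson r = 0.98 with the mean of the 39 tested genes, standardised), Shcbp1 (0.97), 2810417H13Rik (0.96), Spc24 (0.96), Spag5 (0.96), Kif4 (0.96), Melk (0.95) and Hmgb2 (0.95). Nuf2 ranged from 1.76 to 4.40 FPKM and Hmgb2 from 5.99 to 9.81 FPKM. These values describe likeness over shared libraries.

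Further genes of the same pathways were taken from textbook lists. These lists too were drawn up with earlier results of these data known, so the shares called are descriptive. Of 44 other replication genes tested in longitudinal 4 h against control, 11 fell (25.0%) and 1 rose, beside 10.4% of all genes called lower. Their median was -0.24. Pold1, the catalytic subunit of polymerase delta, had 3.20, 3.49 and 3.40 FPKM in longitudinal 4 h devices, against 5.79, 5.01 and 5.10 FPKM in control devices, and fell by 0.53 (SE 0.08, limma adjusted p = 0.00482). Rfc2, another clamp loader subunit, fell by 0.27 (SE 0.05), and Rpa1, which binds single-stranded DNA, fell by 0.36 (SE 0.07) on the log2 scale. Among 69 other mitosis genes limma called 4 lower (5.80%, beside 10.4% of all genes) and 0 higher, and the median was -0.19. Ncapd2, a condensin subunit, had 4.38, 5.69 and 4.82 FPKM in longitudinal 4 h devices, against 8.73, 8.09 and 9.37 FPKM in control devices, and fell by 0.71 (SE 0.13, limma adjusted p = 0.00605). In transverse 4 h cells limma called 0 of the 44 and 0 of the 69, beside 0.0578% of all genes, with medians of -0.22 and -0.26. There 25 and 20 had an unadjusted p under 0.05 and a lower level, as did 5.86% of all genes.

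Genes upstream of the cycle were called in both directions in longitudinal 4 h cells, where 20.7% of all genes were called and 10.4% were called lower. Of 18 genes tested from a list of G1 cyclins, kinases and E2F factors that also held Myc, 2 rose and 2 fell. Myc, the growth-promoting transcription factor, had 8.31, 8.49 and 12.5 FPKM in longitudinal 4 h devices, against 4.81, 3.18 and 4.14 FPKM in control devices. It rose by 1.08 (SE 0.21, limma adjusted p = 0.00803), and Tfdp2, an E2F partner, fell by 0.57. Of 19 genes from a list of CDK inhibitors and RB or DREAM repressors 1 rose and 5 fell. Those that fell included Fzr1, an activator of the anaphase-promoting complex that the list also held, by 0.29 and the pocket protein gene Rbl2 by 0.43. Of 22 genes of the p53 and DNA damage responses 1 rose and 4 fell. The shares called lower in these 3 lists were 11.1%, 26.3% and 18.2%, in the order given. Btg2, an antiproliferative gene, had 33.2, 29.9 and 34.0 FPKM in longitudinal 4 h devices, against 18.2, 13.5 and 16.2 FPKM in control devices, and rose by 0.99 (SE 0.17, limma adjusted p = 0.00597). These rises were not particular to 4 h. At 30 min Btg2 had 102, 151 and 131 FPKM in longitudinal and 125, 94.3 and 115 FPKM in transverse devices (limma adjusted p = 1.16e-06 and 3.24e-06 against control). Myc had 11.4, 11.1 and 12.8 FPKM in longitudinal and 8.37, 10.3 and 6.60 FPKM in transverse 30 min devices (limma adjusted p = 0.00914 and 0.215). In transverse 4 h cells limma called 0 genes of these 3 lists, beside 0.0578% of all genes. An unadjusted p under 0.05 was reached by 2, 2 and 3 of their genes, while 5.86% of all genes were lower and 4.77% higher at that level.

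Markers of other cells were measured beside these genes. In longitudinal 4 h against control, limma called 0 of 12 fibroblast, 0 of 13 macrophage and leukocyte, 0 of 8 smooth muscle, 0 of 8 cardiac myocyte and 0 of 6 epicardial markers. At an unadjusted p under 0.05 there were 1 fibroblast, 1 macrophage, 2 smooth muscle, 1 cardiac myocyte and 0 epicardial markers, while 19.4% of all genes were lower and 17.9% higher at that level. Of 10 endothelial markers 1 rose (Flt1) and 1 fell (Tek), in a comparison that called 20.7% of all genes. The macrophage and leukocyte markers had positive log2 fold changes for 13 of 13 in longitudinal 4 h cells (median 0.13) and 12 of 13 in transverse 4 h cells (median 0.05) against control. Against 30 min of the same axis they were positive for 13 of 13 at 4 h in either axis, with medians of 0.27 for longitudinal and 0.17 for transverse stretch. Smooth muscle and mural markers had a median of 0.38 in longitudinal 4 h cells (6 of 8 positive) and -0.01 in transverse 4 h cells (3 of 8 positive). The summed smooth muscle and mural markers were 935 to 1588 FPKM in longitudinal 4 h and 485 to 840 FPKM in transverse 4 h devices, against 501 to 828 FPKM in control devices. At 30 min that sum was 807 to 1626 FPKM in longitudinal and 427 to 1310 FPKM in transverse devices. Acta2 made up much of it, at 545, 491 and 927 FPKM in longitudinal 4 h and 431, 211 and 408 FPKM in control devices. Fibroblast markers summed to 3534 to 3960 FPKM in longitudinal 4 h and 3101 to 3447 FPKM in transverse 4 h devices, against 3312 to 4005 FPKM in control devices. Macrophage and leukocyte markers summed to 531 to 596 FPKM in longitudinal 4 h and 473 to 599 FPKM in transverse 4 h devices, against 404 to 575 FPKM in control devices. The endothelial markers, of which Vwf was below 1 FPKM throughout, summed to 70.3 to 80.9 FPKM in longitudinal 4 h and 67.3 to 83.4 FPKM in transverse 4 h devices, against 63.5 to 95.4 FPKM in control devices. Epicardial markers summed to 18.1 to 20.5 FPKM in longitudinal 4 h and 15.1 to 16.1 FPKM in transverse 4 h devices, against 16.8 to 18.1 FPKM in control devices. Cardiac myocyte markers summed to 14915 to 18873 FPKM in longitudinal 4 h and 15709 to 17029 FPKM in transverse 4 h devices, against 14806 to 18565 FPKM in control devices. The smooth muscle sum of longitudinal 4 h devices lay above, and the epicardial sum of transverse 4 h devices below, all controls, while the other sums at 4 h overlapped. The part of cell composition in the levels of the replication and mitosis genes was not tested.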

How the data were processed

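Poly(A) RNA of 15 libraries was sequenced on an Illumina HiSeq from unstranded TruSeq libraries, per the labels' protocols. Per the submitters' processing notes, TopHat 1.4.1, Cufflinks 2.0.2, FastQC and mouse build mm9 were used; the sources used here do not give their settings. Per the file headers, the authors deposited an FPKM value per gene and library. The deposited table also holds the authors' q-values for each stretch group against control, and the sources used here do not give the test behind them. There were 0 further columns of per-library values. Positions are those of the table's entries in mm9, and 1 was added to each start. End minus start equalled the RefSeq span for 3165 of 12208 genes, and end minus start plus 1 for 303. Most entries thus differed in span from RefSeq, so positions and overlaps are those of the entries, not of the genes. Promoters come from RefSeq (GRCm38.p6) and were matched by symbol.

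From the FPKM values log2(FPKM + 1) was computed and fitted with limma 3.58.1 in R 4.3.3 (trend and robust), with 5 group means over all 15 libraries and 10 residual degrees of freedom. Genes needed 1 FPKM in 3 libraries, and two-sided p-values were adjusted across those genes (Benjamini-Hochberg) in each of 9 comparisons. Groups followed the sample titles. The fit was tested on simulated data whose genes varied independently, so that test does not cover genes that vary together. The members and gene lists were chosen with earlier results of these data known. Values per library are given for up to 2 genes of smallest p per role in each 4 h comparison with control, for Mcm5, Top2a, called genes and Cdc6; up to 3 genes per other list and 8 of most similar pattern are named. Deviations of libraries sharing a device letter correlated at r = 0.120, 0.350 and 0.312 between longitudinal 30 min and control. Every other comparison had a pair at 0.1 (rounded) or below, and r was -0.502 for letter B between longitudinal and transverse 30 min. Of the 15 libraries, 5 were closest to their own letter in other groups. These values cannot show whether letters pair the samples, and the main fit did not pair them. Alternatives covered the pseudocount, the filter, library scaling, limma's options, the groups in the fit, a replicate block and leaving out each library.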

Additional observations from a re-analysis of the deposited data

How the results depend on the processing

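Under the alternatives run, no called log2 fold change of the 40 genes changed sign. The number of genes called lower in longitudinal 4 h against control was 3, beside 10.4% of all genes. With a replicate block it was 1 (Mcm7), beside 6.78% of all genes, and Bub1b and Kif20a each had a limma adjusted p of 0.0523. When the fit held those 6 libraries alone it was 5 (adding Plk1 and Racgap1), beside 8.40% of all genes. Over the fits that left out 1 library it was 1 to 4, beside 3.11% (without control B) to 13.6% (without transverse 30 min B) of all genes. In longitudinal 4 h against longitudinal 30 min the number called lower was 0, beside 3.07% of all genes. Over the leave-outs it was 0 to 1: Mcm7 without control A or longitudinal 30 min A, and Rfc3 without longitudinal 4 h B. The share of all genes called lower ran from 0.447% (without longitudinal 30 min C) to 4.74% (without transverse 30 min B). With a replicate block limma called 0 of the 39 in longitudinal 30 min against control, as without it, and it changed no count of calls other than that in longitudinal 4 h against control. A filter of 5 FPKM left 24 genes to test, and all 24 had negative log2 fold changes in both 4 h comparisons with control and in both comparisons of 4 h with 30 min. Without control A, 32 of 39 were negative in longitudinal 4 h against control. The median in transverse 4 h against control was -0.42 to -0.21 over the leave-outs, lowest without control B or transverse 4 h B and nearest 0 without transverse 4 h C. It was -0.14 with both control A and transverse 4 h C left out, an alternative chosen after seeing the data. FPKM without read counts leaves precision resting on 3 devices per group, and fold changes of genes near 1 FPKM are understated.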
